A study of Homo sapiens with 11 samples.

Results

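A group of 51 genes of G2 phase and mitosis, chosen by name and without the kinesin motors, was followed across 4 treatments of MDA-MB-468 cells. It holds the mitotic cyclins with CDK1, mitotic kinases, the spindle checkpoint, kinetochore, spindle and cytokinesis proteins, condensin, and the machinery that ends mitosis. A gene was measured when a probe set of the array named it and no other gene, which held for 49 of the 51, and all 49 passed the filter on low values. They are 49 of 15865 genes tested. CENPA and BUB1B had only probe sets shared with another gene (SLC35F6 and PAK6), and their levels are not given.

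MDA-MB-468 is a human breast cancer line, 1 line derived from a pleural effusion. The 4 groups were untreated control (3 arrays), TNF at 40 ng/ml (3 arrays), apigenin, a flavone of plants, at 40 µM (2 arrays), and TNF plus apigenin at the same doses (3 arrays), all after 24 h. Total RNA was hybridised to GeneChip Human Gene 2.1 ST arrays, and values are the deposited log2 values. Nothing in the labels says that replicates were separate cultures, so all p-values rest on array-to-array spread alone, which could be technical. The line's basal and epithelial markers were present (EGFR lay between 10.5 and 11.1), PGR was below the level used as a floor (2.53) on all 11 arrays, and ESR1 was above it on 2. Of 8 leukocyte, fibroblast and endothelial markers, PTPRC, CD3E, PDGFRB and VWF were below the floor on every array, whereas CD68, CD14 and COL1A1 were above it on every array and CDH5 on 10.

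As background, cyclin B bound to CDK1 drives cells into mitosis once CDC25 phosphatases remove inhibitory phosphates. PLK1 and the Aurora kinases then build the spindle, the kinetochore ties chromosomes to it, and the checkpoint holds the anaphase-promoting complex until all are attached. CDC20 activates that complex, which destroys securin and cyclin B. Many of these genes are transcribed late in the cell cycle through a cell cycle genes homology region (CHR) near the start site, bound by the MuvB complex with B-MYB and FOXM1, and through upstream CCAAT boxes bound by NF-Y. In bulk RNA, fewer cells in G2 and mitosis and less of these transcripts per such cell cannot be told apart.

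Of the 5 members with the largest called change with apigenin alone, the promoters of 4 are shown because they carry these elements. They are the stretch just upstream of the RefSeq start (GRCh38.p14), with TTTGAA or TTTAAA, the CHR letters searched, and CCAAT, read on either strand (ATTGG on the other), in capitals.
HMMR: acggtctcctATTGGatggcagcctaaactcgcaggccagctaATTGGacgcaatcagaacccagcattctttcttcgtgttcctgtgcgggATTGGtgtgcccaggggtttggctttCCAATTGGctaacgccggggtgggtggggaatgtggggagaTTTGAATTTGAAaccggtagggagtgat
PLK1: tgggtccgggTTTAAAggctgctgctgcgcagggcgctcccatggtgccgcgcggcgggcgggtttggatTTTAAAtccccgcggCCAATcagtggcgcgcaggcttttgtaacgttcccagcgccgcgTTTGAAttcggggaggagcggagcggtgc
CCNB1: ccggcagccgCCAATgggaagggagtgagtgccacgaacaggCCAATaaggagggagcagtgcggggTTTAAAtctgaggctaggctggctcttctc
CDC25C: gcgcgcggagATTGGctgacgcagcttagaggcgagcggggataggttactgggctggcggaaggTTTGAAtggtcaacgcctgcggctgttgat
These are chr5:163460445-163460631 for HMMR, chr16:23678731-23678888 for PLK1 and chr5:69167053-69167149 for CCNB1, all on the plus strand, and chr5:138331805-138331899 on the minus strand for CDC25C. HMMR had TTTGAA in tandem, starting 28 and 22 bases before the start site, with 5 CCAAT matches further upstream, of which a pair, written CCAATTGG, overlaps on opposite strands. PLK1 had TTTGAA at -29 and CDC25C had it at -30, each with a CCAAT upstream of it, and PLK1 also had TTTAAA at -148 and -88. The CDC25C stretch belongs to 1 of several RefSeq starts of that gene. CCNB1 had TTTAAA at -30 in the same place and CCAAT at -87 and -55. SPC24, the fifth and the one with the largest change, had neither TTTGAA nor TTTAAA in its window and had CCAAT at -207, -109 and -74.

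RefSeq windows of 300 bases (250 before to 50 after the start, both strands) were at hand for 45 of the 51 members. TTTGAA was in the windows of 33 of these 45 genes (73.3%), against 18.2% of all 27305 genes with a window and 1 of 32 G1/S and DNA replication genes (3.13%). At least 1 CCAAT was in 77.8% of the members, 39.7% of all genes and 62.5% of the G1/S genes. Both motifs together were in 57.8% of the members and 7.26% of all genes. TTTAAA was in 24.4% of the members and 14.5% of all genes. Among the members, TTTGAA did not go with a larger change: the median log2 change with apigenin was -0.64 in 31 measured members with it and -0.69 in 12 without it. The 12 include CCNB1, CDC25B, NCAPH and PTTG1, which had TTTAAA, so this is not a split by the presence of either CHR motif. A match is a description of letters in a window and not a site.

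Apigenin lowered mitosis genes, and TNF by itself called none of them on deposited values and 1, SPC24, after quantile normalization. Apigenin alone lowered 11 of the 49 members and raised 0 (3.44% of all genes tested were called lower), with 47 of 49 below 0 and a median log2 change of -0.66, where all genes tested had -0.18. Most genes tested were also below 0 in that comparison: NCAPH, at -0.10, ranked 9415 from the lowest of 15865. With TNF present in both groups, apigenin lowered 2, PLK1 and CCNB1 (background 0.681%), with 45 of 49 below 0 and a median of -0.31 against 0.02 for all genes. TNF plus apigenin against control lowered 6 (background 1.78%), with 44 of 49 below 0 and a median of -0.43 against -0.02. A call is an adjusted p under 0.05 in limma after Benjamini-Hochberg adjustment over all 15865 genes. Some of these comparisons share arrays. The effect of apigenin alone and its effect in the presence of TNF share none.

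**Figure D1:**
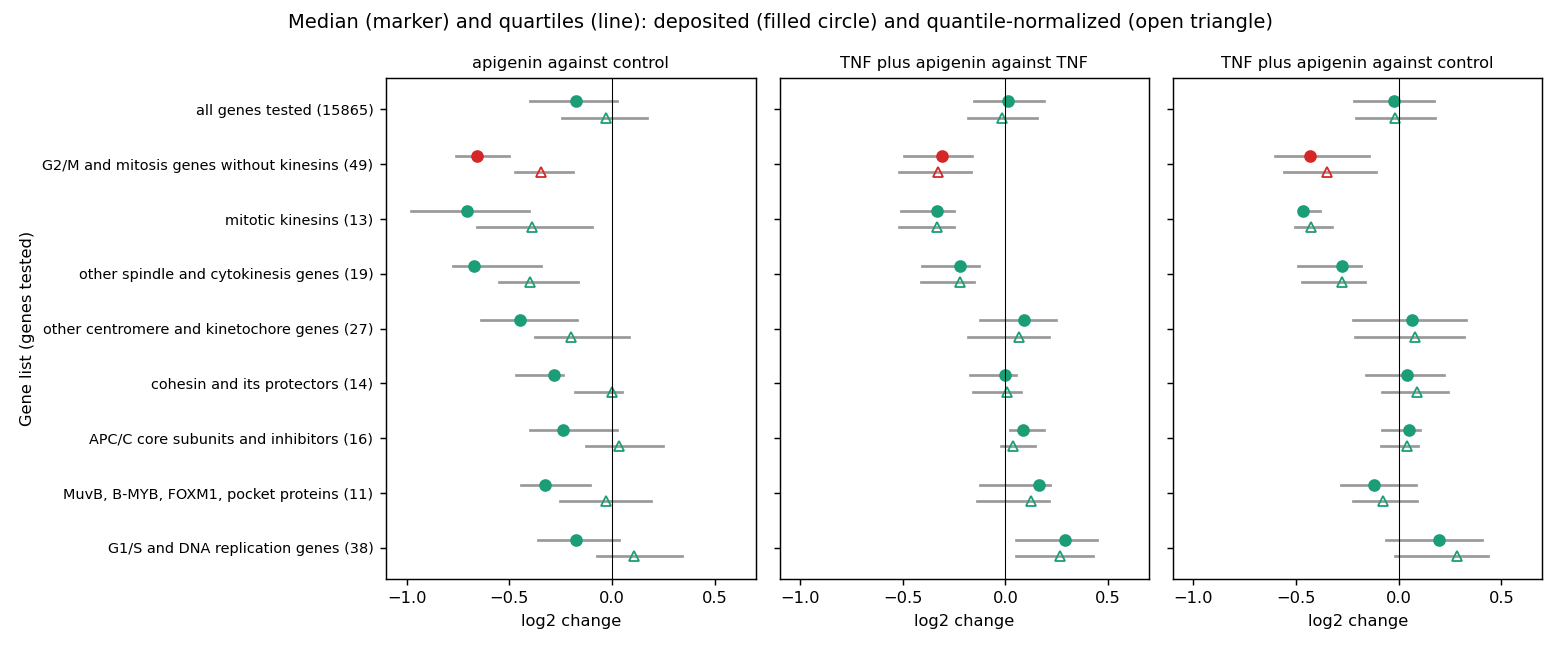
Median (marker) and quartiles (line) of the log2 change in 3 comparisons, for all genes tested, the members (red) and related gene lists, from deposited (filled circles) and quantile-normalized values (open triangles). The members' median lies at -0.66 and -0.34 for apigenin against control, left of all genes on both scales, as do the kinesins. The G1/S genes lie right of 0 where TNF was present. Without array apigenin 1 (not drawn) their median with apigenin alone was also above 0, at 0.09 on deposited values.

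The scale of the arrays moved these values. Array apigenin 1 stood apart, with a median over the tested genes of 3.89 and an interquartile range of 2.40, where the other 10 arrays had medians of 4.08 to 4.32 and ranges of 2.63 to 2.91. TNF plus apigenin 3 was the next lowest. Therefore counts and calls are also given after quantile normalization of all 53617 probe sets, and the counts for apigenin alone also without array apigenin 1. After quantile normalization apigenin alone lowered 9 members (background 2.83%), all of them among the 11, and DLGAP5 and SMC4 were no longer called. Apigenin in the presence of TNF lowered 10 (background 2.12%) and TNF plus apigenin against control lowered 19 (background 4.37%), which include the 2 and the 6. The 8 added with TNF present were CDC20, CDC25B, CDC25C, AURKA, HMMR, CENPF, SPC24 and TOP2A. The 13 added for both agents against control were CCNF, CDC25B, CDC25C, AURKA, BUB1, TPX2, CENPF, DLGAP5, HJURP, NCAPD2, UBE2C, GTSE1 and ASPM. The medians were then -0.34, -0.33 and -0.35, against -0.03, -0.02 and -0.02 for all genes. PTTG1 and TACC3 lay above 0 with apigenin alone on both scales. After quantile normalization PRC1 (0.05), NUF2 (0.01), NCAPH (0.20) and ESPL1 (0.01) did so too. Left without array apigenin 1, apigenin against control called 0 members in limma on deposited values (1 array against 3, background 0.466%), with 45 of 49 below 0 and a median of -0.42 against -0.04 for all genes. With both changes it called CCNB1 and PLK1 (background 1.27%).

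Array by array, 48, 33 and 48 of the 49 members lay above their own mean over all arrays on the 3 control arrays, and 37, 45 and 37 on the TNF arrays. On the apigenin arrays 1 and 11 did, and with both agents 20, 28 and 1. After quantile normalization the counts were 42, 32 and 43 for control, 31, 38 and 42 for TNF, 13 and 10 for apigenin, and 2, 14 and 7 for both. Every array with apigenin then had fewer members above their mean than every array without it. On the deposited scale the same order held, with array TNF plus apigenin 2 at 28 and control 2 at 33 the nearest. Arrays apigenin 1 and TNF plus apigenin 3, with 1 member above, were also lower over all genes tested. Median deviations from the gene means there were -0.28 and -0.10 for all genes and -0.63 and -0.40 for the members. On the other arrays all genes had -0.04 to 0.08. The share of all genes above their mean is not given, so these counts cannot be read as particular to the members.

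**Figure D2:**
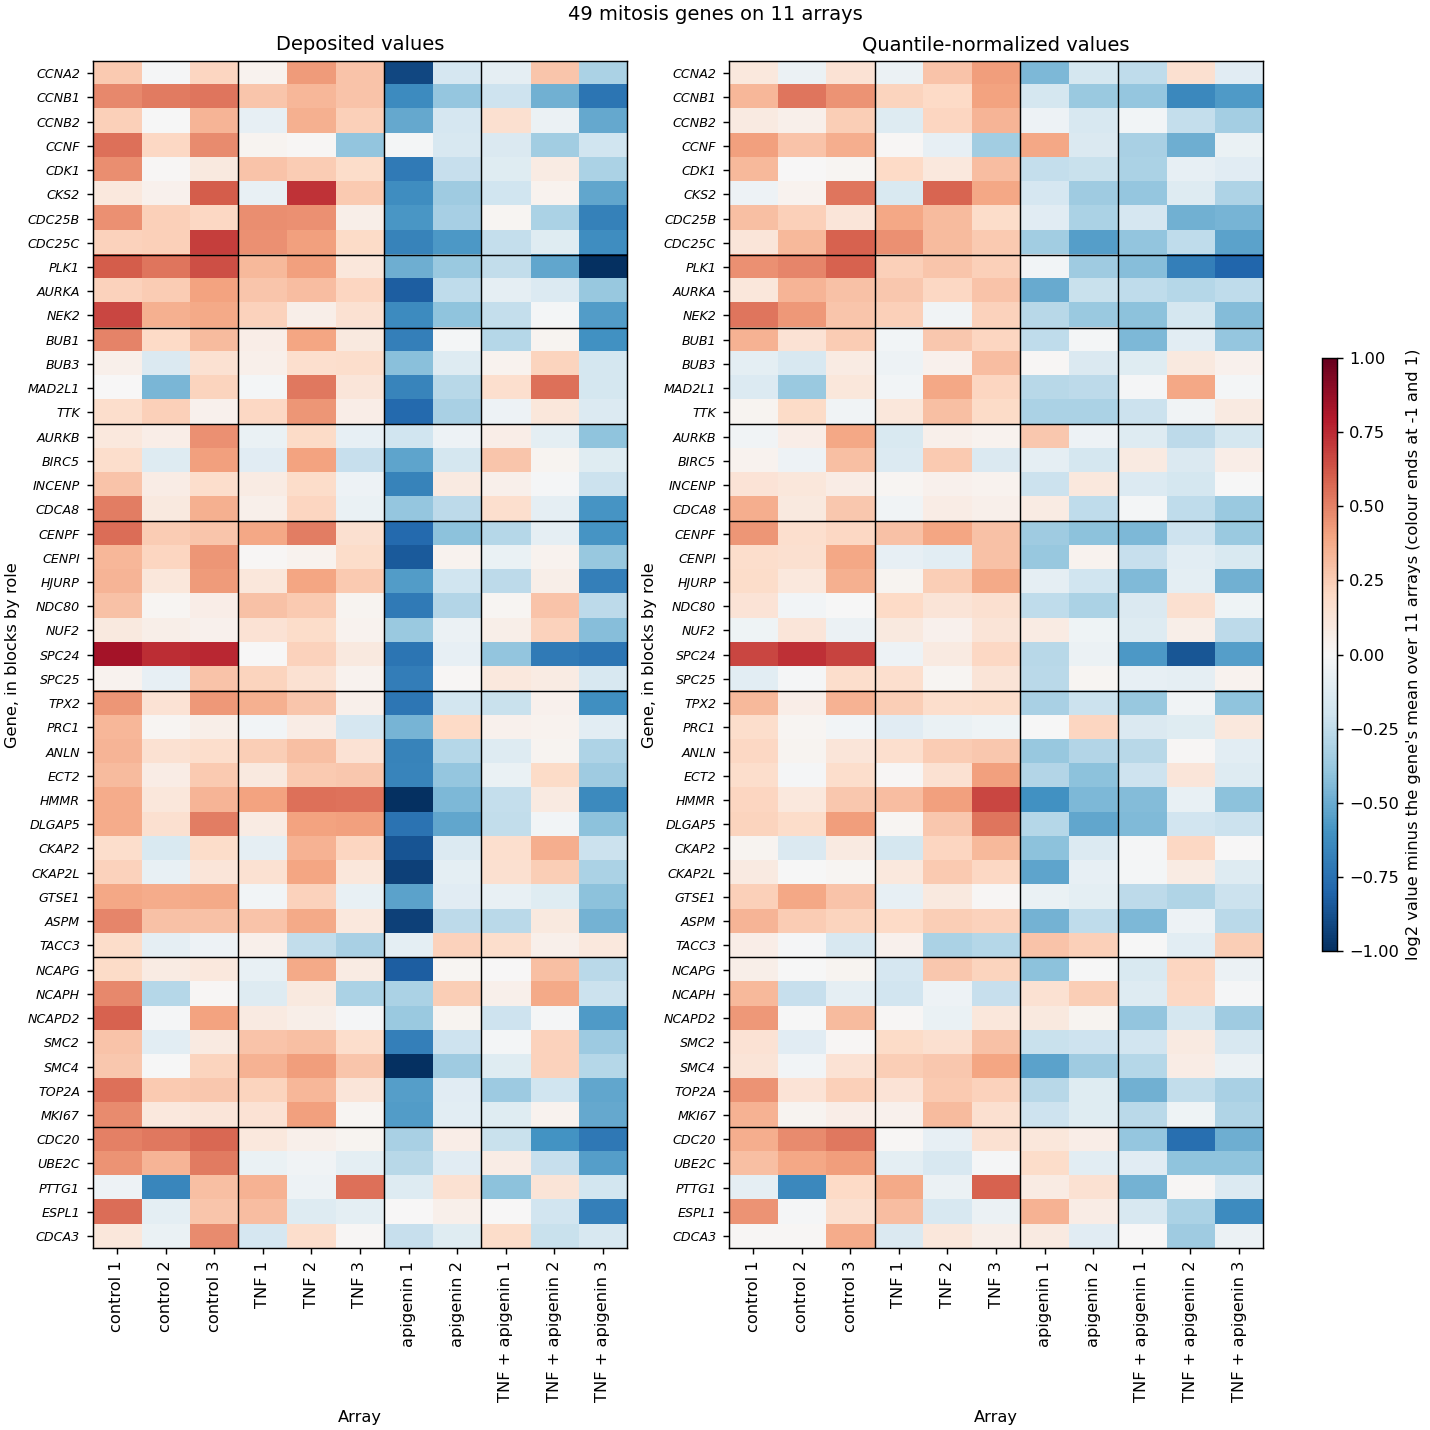
Each of the 49 members on each of 11 arrays as its log2 value minus its own mean over the arrays, in blocks by role, from deposited (left) and quantile-normalized values (right). The 5 arrays with apigenin are mostly blue after quantile normalization, whereas on the deposited scale array TNF plus apigenin 2 has 28 of 49 members above their mean. Array apigenin 1 has 1 of 49 above on the deposited scale and 13 after quantile normalization. TACC3 and NCAPH do not follow the other members.

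All 8 genes of the cyclins, CDK1 and its activators were below 0 with apigenin alone, from -0.50 (CCNF, the F-box cyclin of a ubiquitin ligase) to -1.02 (CCNB1), with a median of -0.72, and 2 were called. CCNB1, cyclin B1, the partner of CDK1 at mitotic entry, stood at 6.55, 6.59 and 6.61 on the control arrays, 6.35, 6.40 and 6.36 with TNF, 5.44 and 5.69 with apigenin and 5.87, 5.59 and 5.34 with both. Every array with apigenin was lower than every array without it, by at least 0.48. The change was -1.02 ± 0.19 (SE) with apigenin alone (2.02-fold lower, adjusted p = 0.00996), -0.77 ± 0.17 (SE) with TNF present (adjusted p = 0.0392) and -0.98 ± 0.17 (SE) for both against neither (adjusted p = 0.00547). After quantile normalization the arrays read 6.39, 6.60 and 6.51 on the control arrays, 6.28, 6.26 and 6.46 with TNF, 5.89 and 5.69 with apigenin and 5.67, 5.42 and 5.50 with both, again without overlap between arrays with and without apigenin.

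CDC25C, a phosphatase that activates CDK1, stood at 5.18, 5.18 and 5.63 on the control arrays, 5.40, 5.36 and 5.14 with TNF, 4.28 and 4.37 with apigenin and 4.71, 4.82 and 4.32 with both. Its 5 arrays with apigenin were all lower than its 6 without. It fell with apigenin alone (-1.004 ± 0.211 (SE), adjusted p = 0.0178), and its change with TNF present was -0.68 ± 0.19 (SE) (adjusted p = 0.118, and 0.0185 after quantile normalization, a call). CDC25B, another such phosphatase, had -0.76 alone (adjusted p = 0.0748) and -0.65 with TNF, the latter called after quantile normalization (-0.67, adjusted p = 0.0185) and not on deposited values. CDK1 itself had -0.66 and -0.36, and cyclin A2 (CCNA2) had -0.69 and -0.29, none called on either scale. CCNB2 and CKS2, a CDK-binding subunit, had -0.53 and -0.74 with apigenin alone, uncalled.

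The kinases PLK1, AURKA and NEK2 fell with apigenin alone, whereas the kinases CDK1 and AURKB, with -0.66 and -0.33, were not called. PLK1, which promotes mitotic entry and spindle assembly, stood at 7.87, 7.79 and 7.91 on the control arrays, 7.59, 7.67 and 7.37 with TNF, 6.77 and 6.89 with apigenin and 7.01, 6.75 and 6.26 with both. Groups with and without apigenin did not overlap. Its change was -1.02 ± 0.22 (SE) with apigenin alone (adjusted p = 0.0182), -0.87 ± 0.19 (SE) with TNF present (adjusted p = 0.0404) and -1.19 ± 0.19 (SE) for both against control (2.27-fold lower, adjusted p = 0.00341). After quantile normalization it read 7.72, 7.75 and 7.85 on the control arrays, 7.50, 7.54 and 7.50 with TNF, 7.23 and 6.90 with apigenin and 6.83, 6.58 and 6.47 with both, again without overlap.

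AURKA, the centrosomal Aurora kinase, stood at 5.33, 5.35 and 5.51 on the control arrays, 5.38, 5.41 and 5.32 with TNF, 4.28 and 4.85 with apigenin and 5.02, 4.96 and 4.72 with both. It fell with apigenin alone (-0.83 ± 0.20 (SE), adjusted p = 0.0324). With TNF present it had -0.47 ± 0.18 (SE) (adjusted p = 0.312), and it was called there after quantile normalization (-0.52, adjusted p = 0.0358). Array apigenin 1 was its lowest array, and without it the change with apigenin was -0.55.

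NEK2, a kinase that splits the centrosomes, stood at 5.94, 5.62 and 5.65 on the control arrays, 5.50, 5.33 and 5.42 with TNF, 4.64 and 4.86 with apigenin and 5.03, 5.25 and 4.71 with both. Its arrays with apigenin were all below those without. It fell with apigenin alone (-0.98 ± 0.20 (SE), adjusted p = 0.0155) and with both against control (-0.74 ± 0.18 (SE), adjusted p = 0.0397). The second call was lost in 8 of 11 leave-one-out fits, with changes between -0.87 and -0.60.

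**Figure D3:**
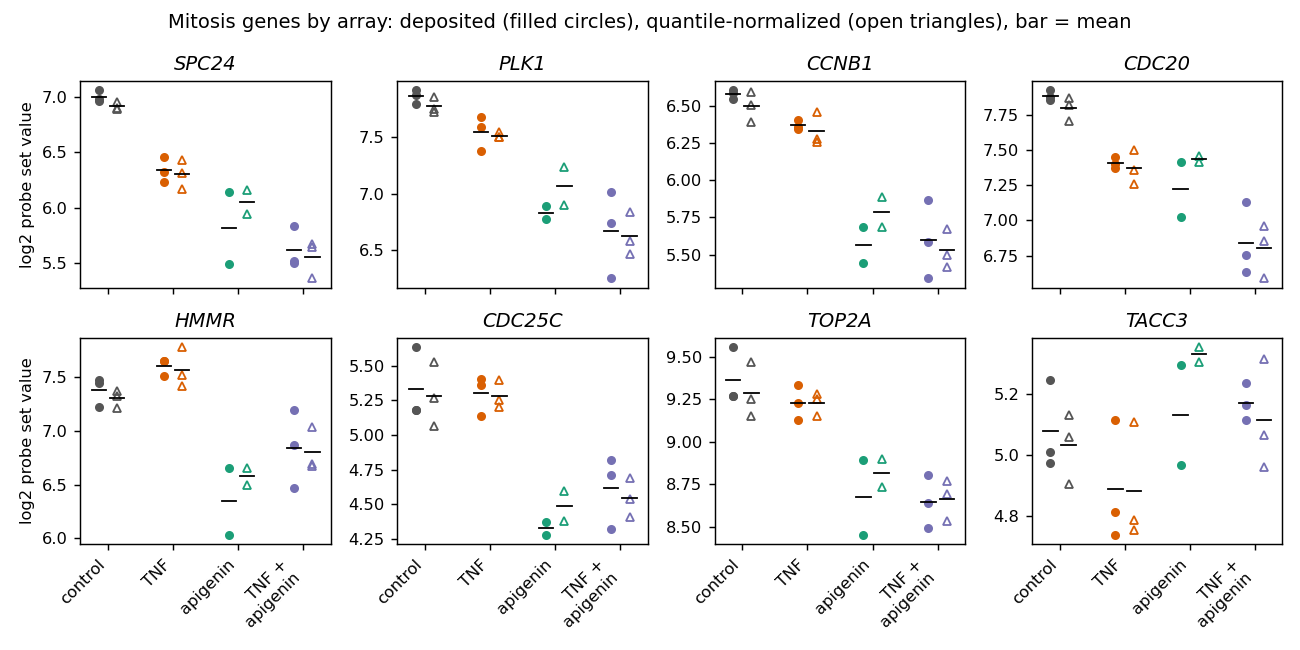
Log2 values of 8 members on every array by group, deposited (filled circles) and quantile-normalized (open triangles), with bars at the group means. SPC24, PLK1, CCNB1, HMMR, CDC25C and TOP2A are lower on each of the 5 arrays with apigenin than on each of the 6 without it. CDC20 already lies below control with TNF alone, and TACC3 overlaps between groups.

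In the spindle assembly checkpoint, 0 of the 4 measured members were called with apigenin alone, where 2 of 4 were lower at an unadjusted p under 0.05 in limma (17.5% of all genes were). Changes there ran from -0.29 (BUB3) to -0.70 (TTK), a kinase that starts checkpoint signalling. TTK stood at 7.53, 7.59 and 7.39 on the control arrays, 7.56, 7.79 and 7.42 with TNF, 6.57 and 7.03 with apigenin and 7.30, 7.46 and 7.22 with both. The apigenin arrays were lowest, and with both agents 2 arrays lay just below every array without apigenin and 1 among them. MAD2L1, which binds CDC20 when the checkpoint is on, stood at 5.60, 5.14 and 5.82 on the control arrays, 5.58, 6.12 and 5.72 with TNF, 4.93 and 5.32 with apigenin and 5.77, 6.15 and 5.42 with both, with control 2 between the apigenin arrays. BUB1, a kinase at unattached kinetochores, had -0.69 alone and -0.62 with both against control, the latter called after quantile normalization (-0.56, adjusted p = 0.032) and not on deposited values.

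The chromosomal passenger complex, which corrects faulty attachments, had 0 of 4 members called in any of the 6 comparisons on either scale. With 4 genes this cannot be told from the share of all genes (3.44% called lower with apigenin alone). With apigenin alone its changes were -0.33 ± 0.20 (SE) for its kinase AURKB, -0.50 for BIRC5 (survivin), -0.47 for INCENP, its scaffold, and -0.64 for CDCA8 (borealin). After quantile normalization these were -0.03, -0.23, -0.16 and -0.33. With TNF present the changes lay between -0.24 and 0.05 on deposited values.

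Among 7 measured centromere and kinetochore genes, SPC24 and CENPF fell with apigenin alone on both scales. SPC24, a subunit of the NDC80 complex that binds microtubules, stood at 7.06, 6.97 and 6.98 on the control arrays, 6.24, 6.46 and 6.33 with TNF, 5.50 and 6.15 with apigenin and 5.83, 5.53 and 5.50 with both. The control arrays were highest, the TNF arrays were intermediate without overlap with control, and those with apigenin were lower again. After quantile normalization the order was the same, at 6.89, 6.95 and 6.90 on the control arrays, 6.17, 6.32 and 6.43 with TNF, 5.95 and 6.16 with apigenin and 5.65, 5.37 and 5.67 with both. SPC24 fell by 1.18 ± 0.21 (SE) with apigenin alone (adjusted p = 0.0072) and by 1.38 ± 0.19 (SE) with both against control (2.61-fold lower, adjusted p = 0.000941), the lowest change among the members in each. With TNF present it had -0.72 ± 0.19 (SE) (adjusted p = 0.0937, and 0.0109 after quantile normalization, a call).

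The other 3 subunits of the NDC80 complex did not reach a call. With apigenin alone NDC80 had -0.63, NUF2 had -0.28 and SPC25, the direct partner of SPC24, had -0.42. Against control with both agents they had -0.11, -0.11 and -0.07, beside -1.38 for SPC24, and whether SPC24 differed from them was not tested. CENPF, a large kinetochore protein that builds up in G2, stood at 8.57, 8.26 and 8.28 on the control arrays, 8.39, 8.52 and 8.16 with TNF, 7.23 and 7.60 with apigenin and 7.72, 7.92 and 7.42 with both. It fell with apigenin alone (-0.95 ± 0.21 (SE), adjusted p = 0.0223), and with TNF present it was called after quantile normalization (-0.67, adjusted p = 0.0129; -0.67 and 0.123 on deposited values). HJURP, the chaperone that loads the centromeric histone CENPA, had -0.67 alone, and CENPI had -0.73, both uncalled there. For both agents against control HJURP was called after quantile normalization (-0.55, adjusted p = 0.0404 in limma).

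Of 11 spindle and cytokinesis genes, HMMR, DLGAP5 and ASPM fell with apigenin alone. On deposited values TACC3 alone lay above 0 there, and after quantile normalization PRC1 (0.05) did so too. HMMR, a spindle pole and hyaluronan-binding protein, stood at 7.48, 7.22 and 7.44 on the control arrays, 7.51, 7.65 and 7.65 with TNF, 6.03 and 6.66 with apigenin and 6.86, 7.20 and 6.47 with both. The TNF arrays were above the control arrays and every array with apigenin was below both. The change was -1.04 ± 0.24 (SE) with apigenin alone (adjusted p = 0.0262) and -0.76 ± 0.21 (SE) with TNF present (adjusted p = 0.117, and 0.0145 after quantile normalization, a call). Without array apigenin 1, the lowest of the 11, it was -0.72.

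DLGAP5, which stabilises microtubules near chromosomes, stood at 6.60, 6.38 and 6.74 on the control arrays, 6.31, 6.63 and 6.64 with TNF, 5.49 and 5.71 with apigenin and 5.98, 6.20 and 5.81 with both. It fell with apigenin alone (-0.98 ± 0.20 (SE), adjusted p = 0.0149), and missed the threshold after quantile normalization (-0.68, adjusted p = 0.0515). ASPM, a spindle pole protein, stood at 7.82, 7.62 and 7.62 on the control arrays, 7.62, 7.71 and 7.44 with TNF, 6.40 and 7.07 with apigenin and 7.06, 7.43 and 6.86 with both, a change of -0.95 ± 0.23 (SE) with apigenin alone (adjusted p = 0.0331). For both genes, arrays with apigenin were all lower than arrays without it.

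GTSE1, a microtubule-associated protein of G2 phase, stood at 6.55, 6.53 and 6.54 on the control arrays, 6.13, 6.39 and 6.09 with TNF, 5.62 and 6.05 with apigenin and 6.09, 6.04 and 5.75 with both. Its 3 control arrays were close together and above all others. It had -0.70 with apigenin alone (adjusted p = 0.0623) and was called for both against control after quantile normalization (-0.56, adjusted p = 0.0107). The cytokinesis genes ANLN and ECT2 had -0.70 and -0.74 with apigenin alone (adjusted p = 0.0557 and 0.0538), just outside the threshold. TPX2, which activates AURKA on the spindle, had -0.79 (adjusted p = 0.0699). PRC1, a bundler of the central spindle, had -0.27, and CKAP2 and CKAP2L had -0.57 and -0.60. TACC3, a spindle protein that works with clathrin, had 0.05 ± 0.19 (SE) with apigenin alone and 0.28 ± 0.17 (SE) with TNF present, neither called.

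Among 7 condensin, topoisomerase and chromosome surface genes, SMC4 fell with apigenin alone and TOP2A fell with both agents. SMC4, a condensin ATPase, stood at 7.64, 7.36 and 7.59 on the control arrays, 7.71, 7.78 and 7.64 with TNF, 6.36 and 7.01 with apigenin and 7.24, 7.59 and 7.08 with both. Array apigenin 1 was the lowest by a wide gap, and the arrays with both agents overlapped with control. Its change with apigenin was -0.84 ± 0.22 (SE) (adjusted p = 0.0488) and -0.52 without that array (adjusted p = 0.413). TOP2A, which untangles sister chromatids, stood at 9.56, 9.27 and 9.27 on the control arrays, 9.23, 9.33 and 9.13 with TNF, 8.45 and 8.89 with apigenin and 8.64, 8.81 and 8.49 with both, with every array with apigenin below every array without it. Its change was -0.72 ± 0.18 (SE) for both against control (adjusted p = 0.0419), a call lost in 9 of the 11 fits with 1 array left out. After quantile normalization TOP2A was called there (-0.62, adjusted p = 0.0129 in limma) and with TNF present (-0.56, adjusted p = 0.0339). With apigenin alone it had -0.69 (adjusted p = 0.0668). MKI67, the Ki-67 antigen, had -0.57 alone and -0.43 with both against control. The condensin subunits NCAPG, NCAPH and NCAPD2 and the ATPase SMC2 lay between -0.54 and -0.10 with apigenin alone. None of these was called on deposited values. For both agents against control NCAPD2 was called after quantile normalization (-0.56, adjusted p = 0.0291 in limma).

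In the group listed under the anaphase-promoting complex, securin and separase, CDC20 fell with both agents together. CDC20, the activator of the anaphase-promoting complex, stood at 7.86, 7.87 and 7.92 on the control arrays, 7.45, 7.40 and 7.37 with TNF, 7.03 and 7.42 with apigenin and 7.13, 6.75 and 6.64 with both. The TNF arrays lay below control, the apigenin arrays ran from below the TNF arrays to among them, and the arrays with both were below the TNF arrays. Its change was -0.47 with TNF, -0.66 with apigenin and -1.04 ± 0.18 (SE) with both (2.06-fold lower, adjusted p = 0.00451), of which the last was called. After quantile normalization it read 7.71, 7.82 and 7.87 on the control arrays, 7.35, 7.26 and 7.50 with TNF, 7.46 and 7.41 with apigenin and 6.96, 6.59 and 6.85 with both, and it was also called for both against TNF (-0.57, adjusted p = 0.0353).

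UBE2C, the ubiquitin-conjugating enzyme of the same complex, stood at 6.33, 6.22 and 6.39 on the control arrays, 5.81, 5.84 and 5.78 with TNF, 5.60 and 5.76 with apigenin and 5.95, 5.65 and 5.32 with both. All 8 treated arrays were below the 3 control arrays. The adjusted p was 0.408 for TNF, 0.0925 for apigenin and 0.0574 for both against control, and only the last comparison was called after quantile normalization (-0.67, adjusted p = 0.0104). Securin (PTTG1) stood between 3.22 and 4.43, with all 4 groups overlapping, and had 0.15 ± 0.27 (SE) with apigenin alone. ESPL1 (separase) had -0.22 and CDCA3, which was counted in this group, had -0.35, neither called.

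TNF alone against control called 0 of the 49 in limma (0.227% of all genes were called lower). At an unadjusted p under 0.05, 4 of the 49 were lower and 0 higher, against 4.59% and 2.82% of all genes. The median was -0.04, as over all genes. These 4 were SPC24 (-0.66, unadjusted p = 0.00304, adjusted p = 0.206), CCNF (-0.53), UBE2C (-0.51) and CDC20 (-0.47). CCNF stood at 5.76, 5.41 and 5.68 on the control arrays, 5.24, 5.22 and 4.81 with TNF, 5.19 and 5.04 with apigenin and 5.06, 4.86 and 5.01 with both, with all 8 treated arrays below the control arrays. After quantile normalization SPC24 was called (-0.61 ± 0.13 (SE), adjusted p = 0.0458, background 0.309%), and the other 48 were not.

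**Figure D4:**
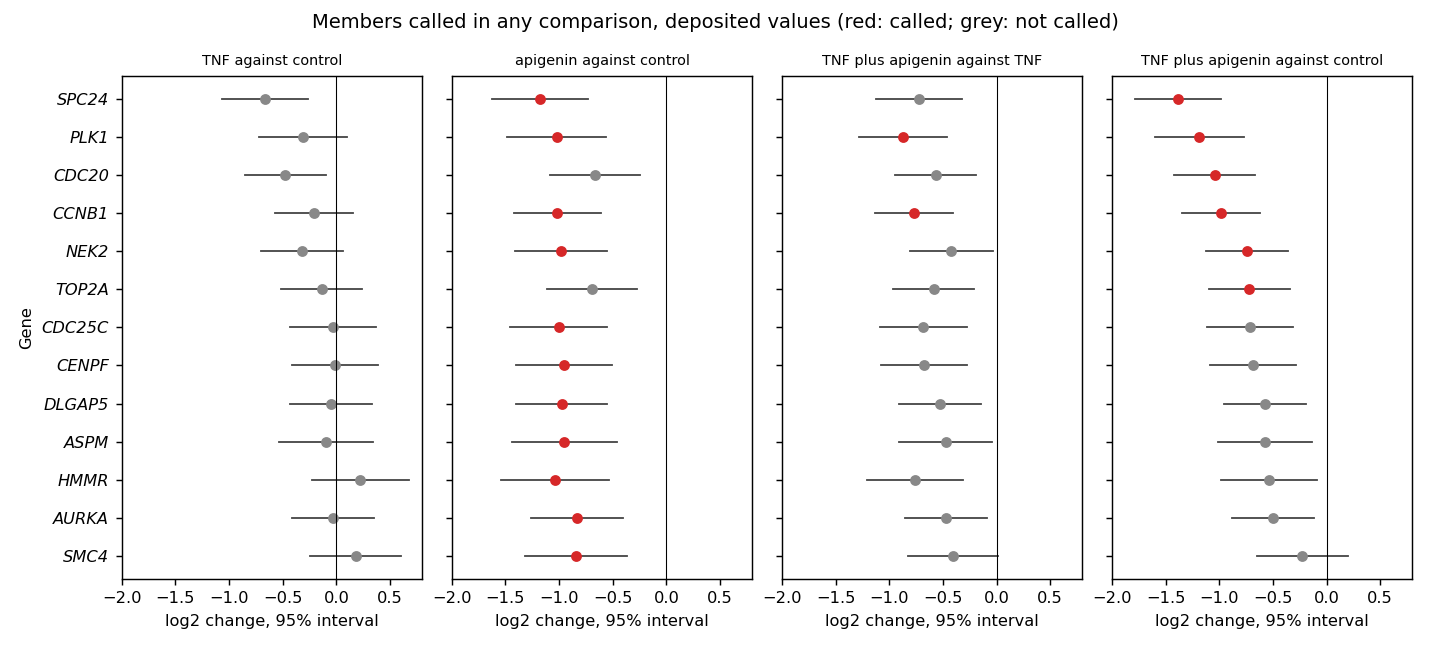
Log2 change with its 95% interval (limma, deposited values) in 4 comparisons for the 13 members called in any of them, red where called. SPC24, PLK1, CDC20 and CCNB1 have intervals well below 0 for both agents against control, and HMMR and SMC4 have their point above 0 with TNF alone.

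The call of SPC24, PLK1, CDC20 and CCNB1 for both agents against control was kept in all 21 other fits, which left out each of the 11 arrays in turn or changed the scale, filter, weights or model. The changes over the fits with 1 array left out were -1.49 to -1.32 for SPC24, -1.36 to -0.98 for PLK1, -1.19 to -0.94 for CDC20 and -1.12 to -0.86 for CCNB1. The calls for apigenin alone were less firm. None of the 11 was kept in every fit, and all 11 were lost when array apigenin 1 was left out or when only the groups compared were fitted. Without that array the changes were -0.86 for SPC24, -0.90 for CCNB1, -0.97 for PLK1, -0.96 for CDC25C, -0.87 for NEK2, -0.87 for DLGAP5, -0.77 for CENPF and -0.61 for ASPM. The 2 calls with TNF present were each lost in 7 of those 11 fits.

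Apigenin without and with TNF could be set side by side on separate arrays. Over the 49 members, 44 were below 0 in both (38.5% of all genes were), Pearson's r of the changes was 0.75 (Spearman's rho 0.78), and over all 15865 genes r was 0.46. These are correlations across genes, which are not independent replicates and share the array design and their part in 1 process. PLK1 and CCNB1 were called lower in both, 18.2% of the 11 and 100% of the 2 (0.466% of all genes were called lower in both). After quantile normalization 7 were called in both, CCNB1, CDC25C, PLK1, AURKA, HMMR, CENPF and SPC24, which is 77.8% of 9 and 70.0% of 10 (1.02% of all genes), with r at 0.76. On that scale 42 of the 49 were below 0 in both (35.7% of all genes were).

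On deposited values the change without TNF was the more negative for 47 of 49 members, the exceptions being PTTG1 and ESPL1, but also for 76.2% of all genes tested. After quantile normalization this held for 24 of 49 members and 53.4% of all genes. The interaction, which tests that difference, called 0 members in limma (0.0252% of all genes in either direction, 0.0441% after quantile normalization). At an unadjusted p under 0.05 it had 0 members (8.16% of all genes), and after quantile normalization 1 (6.85% of all genes), PTTG1 (-0.80, named after its value was seen). Its smallest p belonged to NEK2 (0.56, 95% interval -0.02 to 1.14, adjusted p = 0.613), followed by UBE2C (0.47, 95% interval -0.10 to 1.03) and GTSE1 (0.46, 95% interval -0.10 to 1.02). After quantile normalization these were 0.26, 0.12 and 0.12. Intervals this wide do not show that the effect was equal with and without TNF.

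**Figure D5:**
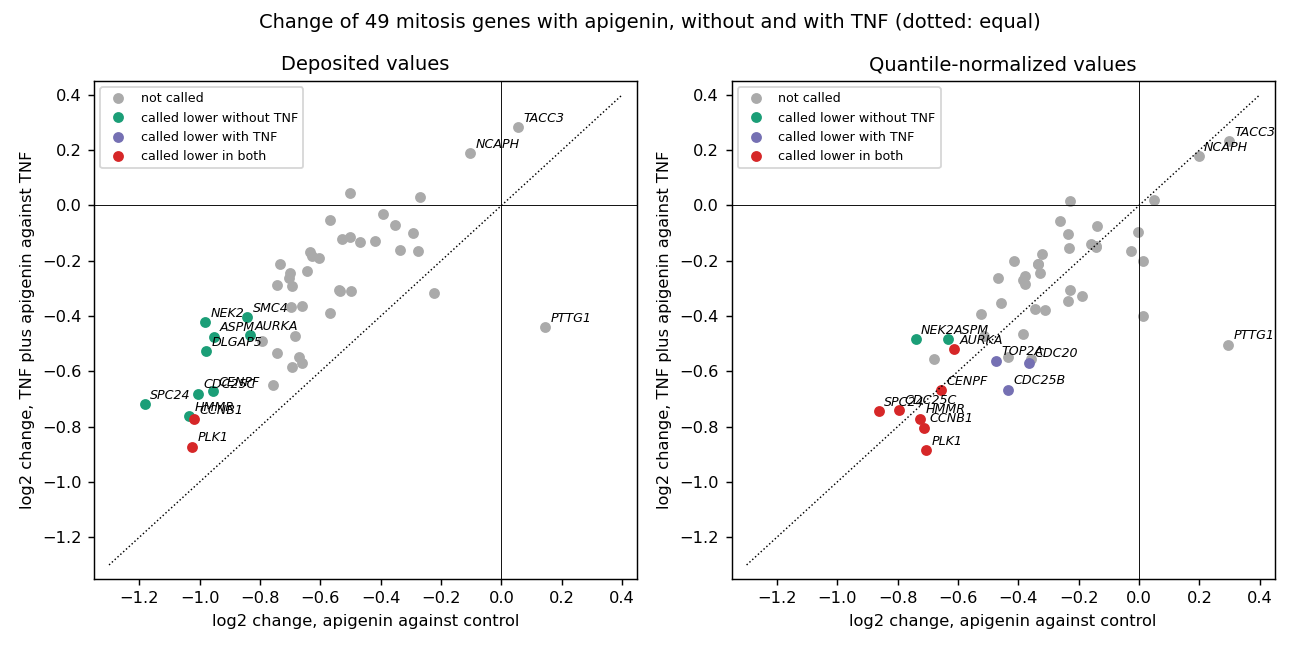
Log2 change of each of the 49 members with apigenin without TNF (horizontal) against that with TNF (vertical), from deposited (left) and quantile-normalized values (right), coloured by call, with a dotted line of equality. Most points lie above the line on the left (47 of 49) and about as many above as below it on the right (24 of 49 above), and 2 and 7 members are called in both.

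TNF added to apigenin called 0 members in limma (0.574% of all genes in either direction, 0.605% after quantile normalization). At an unadjusted p under 0.05, 7 of the 49 members were higher and 0 lower on deposited values, where 14.1% of all genes were higher, so the members' share was that of all genes, and 1.65% were lower. After quantile normalization 1 was higher and 7 lower, against 8.58% and 6.33% of all genes. The median was 0.23, where all genes had 0.16, and -0.02 after quantile normalization. The 3 lowest p-values belonged to SMC4 (0.62, adjusted p = 0.205), TTK (0.53) and MAD2L1 (0.65), and CDC20 was the lowest change (-0.38). After quantile normalization these were 0.35, 0.26, 0.39 and -0.63.

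Other mitosis genes, taken from lists named by function, are read against the 3.44% of all genes called lower with apigenin alone (2.83% after quantile normalization). Of 13 mitotic kinesins 5 fell, KIF20A (-1.66 ± 0.23 SE, adjusted p = 0.00146), CENPE (-1.32), KIF14 (-1.15) and KIF18A (-0.98) among them, with a median of -0.71, and these 4 were also the kinesins called after quantile normalization. KIF20A also fell with TNF present (-1.37, adjusted p = 0.00359). Of 19 other spindle and cytokinesis genes 3 fell with apigenin alone, DEPDC1 (-0.97), NUSAP1 (-0.88) and FAM83D (-0.81), with a median of -0.67, and FAM83D was not called after quantile normalization (-0.50, adjusted p = 0.059). Of 27 other centromere and kinetochore genes 1 was called, CENPW (-1.12), a share near that of all genes, with a median of -0.45, and that median was 0.09 with TNF present. Of 14 cohesin genes 1 was called, STAG1 (-0.89), and it was not called after quantile normalization (-0.62, adjusted p = 0.0522). The 16 core subunits and inhibitors of the anaphase-promoting complex had 0 called in limma, and 3 were lower at an unadjusted p under 0.05 (17.5% of all genes), with a median of -0.24. After quantile normalization 1 of them was called lower, ANAPC10 (-0.67, adjusted p = 0.0335), which was higher when TNF was added to apigenin (0.93, adjusted p = 0.0425). Other calls on that scale went both ways. With TNF present KIF20A, CENPE and DEPDC1 were called lower and the kinetochore gene CENPN higher (0.50). For both agents against control KIF20A, CENPE, KIF4A, KIF18A, DEPDC1 and FAM83D were called lower, and CDC23 (0.63) and DSN1 (0.54) higher. CDC23 is on the list of the anaphase-promoting complex and DSN1 on that of the kinetochore. The share of all genes called higher there is not given. Without array apigenin 1, KIF20A was the only gene of these 5 lists called with apigenin alone in limma (-1.90, adjusted p = 0.00924), where 0.466% of all genes were called lower, and NUSAP1 was called beside it after quantile normalization (1.27%).

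Of 11 regulators of these genes (MuvB, B-MYB, FOXM1 and pocket proteins) 0 were called with apigenin alone in limma, and 4 were lower at an unadjusted p under 0.05, where 17.5% of all genes were. Their median was -0.33, and -0.03 after quantile normalization, equal to that of all genes. The lowest was TFDP2, a partner of E2F proteins (-0.70, named after its value was seen). FOXM1, a transcription factor for mitotic genes, had -0.16 ± 0.21 (SE) with apigenin alone (adjusted p = 0.721) and 0.18 with TNF present. MYBL2 (B-MYB) had -0.29 and -0.11, and E2F1, a G1/S transcription factor, had -0.25 and 0.45. After quantile normalization FOXM1 had 0.16 and 0.17, MYBL2 had -0.03 and -0.09, and E2F1 had 0.02 and 0.41. None of these 3 was called in any comparison on either scale. Of 38 G1/S and DNA replication genes 0 were called with apigenin alone in limma (3.44% of all genes were called lower). At an unadjusted p under 0.05, 1 was higher and 4 lower, against 2.02% and 17.5% of all genes, with a median of -0.17, close to the -0.18 of all genes. Without array apigenin 1 these G1/S genes had a median of 0.09, and 0.16 after quantile normalization, against -0.04 and -0.02 for all genes. With TNF present their median was 0.29, and cyclin D1 (CCND1) rose for both agents against control (0.91 ± 0.20 SE, adjusted p = 0.0217). After quantile normalization CCND1, CDC6, RFC4, RFC5 and FEN1 were called higher for both agents against TNF, and CCND1 and RFC5 for apigenin alone. Neither call with apigenin alone held without array apigenin 1 (CCND1 had 0.77 after quantile normalization). For both agents against control CCND1, CCNE1, MCM6, RFC4 and FEN1 were called higher on that scale, and UHRF1 lower (-0.56, adjusted p = 0.0387 in limma). The share of all genes called higher in these comparisons is not given here, so these calls cannot be read as particular to the list.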

How the data were processed

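The deposited table holds log2 probe set values, made by the authors in Affymetrix Expression Console according to the submitters' processing notes. Software version, summarisation method and annotation build were not given in the sources used here. That the scale is log2 was judged from its span (0.38 to 12.3), and no source says whether arrays had been normalized to each other. Of 53617 probe sets, 23871 named 1 gene in the array's annotation, 1842 several and 27904 none. A gene with several probe sets took that with the highest mean, and no measured member had several. A gene was tested where 2 or more arrays reached 2.53, the middle value of all probe set means (15865 genes). Groups came from the sample labels.

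All 11 arrays entered a model of group means (R 4.3.3, limma 3.58.1, lmFit and eBayes, 7 residual degrees of freedom), with two-sided p-values adjusted by Benjamini-Hochberg over all genes tested and called under 0.05. The interaction subtracted the effect of TNF alone from its effect in the presence of apigenin. The step was tested on simulated data. Quantile normalization, a median shift of each array, array weights, other filters, the mean of a gene's probe sets, the groups compared alone, a trended robust prior, a replicate block and each array left out were tried as alternatives. The members, lists and rules were chosen with earlier results of these data known. Array values were printed for members called in any comparison and for the 3 with the lowest p where under 3 were called. Genes of other lists were named where called on either scale, and FOXM1, MYBL2 and E2F1 always. Promoters came from RefSeq windows (GRCh38.p14) and were shown for those with a CHR motif among the 5 largest called changes, taken in apigenin against control. The number of arrays limits the precision.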

Additional observations from a re-analysis of the deposited data

How the results depend on the processing

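Calls of single members never changed direction: over 399 refits of the 19 member changes called, 297 kept the call and 102 lost it. With apigenin alone the members called were 11, and 3 under array weights (CCNB1, SPC24 and DLGAP5), 18 under a stricter filter on low values, 0 with only the groups compared, 2 with quantile normalization and array apigenin 1 left out (CCNB1 and PLK1), and 0 to 25 over the fits with 1 array left out. Array apigenin 1 gave the 0 and apigenin 2 the 25, and leaving out control 1 or control 3 gave 3 each. The members' median there was -0.66, with -0.34 after quantile normalization, -0.35 with apigenin 1 also left out, and -0.88 to -0.42 with 1 array left out. With TNF present the calls were 2, and 10 under quantile normalization, a median shift, or quantile normalization without apigenin 1, then 1 without a filter (CCNB1), 0 with only the groups compared, 1 with the replicate block (PLK1) and 0 to 3 with 1 array left out, where leaving out control 1, control 3, any TNF array or TNF plus apigenin 2 or 3 gave 0. For both agents against control the calls were 6, and 19 under quantile normalization, with or without apigenin 1, and under a median shift, 14 under array weights, 10 under the stricter filter and 4 to 6 with 1 array left out. TNF against control had 0, and 1 (SPC24) under quantile normalization, with or without apigenin 1, and under array weights. TNF plus apigenin against apigenin had 0, with 0 to 1 over the fits with 1 array left out (SMC4, without apigenin 2), and its median of 0.23 became -0.0162 under quantile normalization and -0.0423 with apigenin 1 left out too. The interaction's median of 0.30 became -0.0034 under quantile normalization, 0.0419 under a median shift, -0.0136 under quantile normalization without apigenin 1, and 0.0776 to 0.5454 with 1 array left out, and it called 0 members in limma in every fit. Where only the groups compared were fitted, fewer arrays estimated the spread, and the cause of the other differences was not tested. With apigenin 1 or 2 left out, the lone apigenin array was assumed to vary like the other groups. For most of these refits, and for the replicate block, the share of all genes called is not given. A rise or fall of these counts can therefore not be read as particular to the members.

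The replicate numbers were not taken as pairs: deviations of same-numbered arrays correlated at -0.24 to 0.28 over 15 pairs, 4 of them above 0.1, and those of other arrays at -0.39 to 0.19 over 30 pairs. With the replicate number as a block the calls were 13 for apigenin alone, 1 for apigenin with TNF present, 5 for both against control and 0 in the other 3 comparisons. All 49 members were above the floor on every array, but the floor is the middle value of all probe set means and not a measured background, so how far a low member such as PTTG1 (3.22 to 4.43) stood above background is not known.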
